A study of Homo sapiens with 3 samples.

Results

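SR proteins and heterogeneous nuclear ribonucleoproteins (hnRNPs) were examined at the RNA level in A549 cells, an established human lung adenocarcinoma line, after knockdown of the RNA helicase DDX24. Members were the protein-coding genes whose symbol starts with SRSF and a digit, or with HNRNP, and there were 39 of them among the 58735 genes counted, 12 SR genes and 27 hnRNP genes. The series holds 3 libraries, 1 per condition. Control carried the pLKO.1 lentiviral control vector, and DDX24-sh1 and DDX24-sh2 each carried a different short hairpin RNA against DDX24 in the same vector. All were stable puromycin-selected lines, so the Control cells had gone through infection and selection as well. The vector is empty in the study's methods, and which control vector the sequenced cells carried cannot be told from the sample records. No condition had a second library, so no comparison between conditions was tested, and every interval given here is an exact 95% interval of 2 counts, limited to counting error and blind to differences between cultures.

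SR proteins bind exonic enhancer sequences through RNA-recognition motifs and recruit the splicing machinery through a tail rich in arginine and serine (the RS domain), which is phosphorylated by the SRPK and CLK kinases. Members of the hnRNP group coat nascent transcripts, often bind silencer elements and frequently oppose SR proteins at the same exon, and several carry arginine-glycine-glycine (RGG) repeats. Many SR genes limit their own level by including a poison exon or by splicing near the end of the transcript, which sends the RNA to nonsense-mediated decay (NMD). A count over a whole gene adds the productive and the decay-prone transcripts together. The balance between the 2 groups of proteins is a classical determinant of splice-site choice, and DDX24 was studied in these cells as a regulator of splicing.

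RS repeats mark most SR genes and RGG repeats part of the hnRNP genes, and the stretches with most repeats are shown for some members described below. HNRNPLL, with 1 RGG triplet, and HNRNPH1, with none, are not shown. Each is 30 codons of the longest annotated coding sequence, read from GENCODE 29 on GRCh38 in transcript direction, with introns removed. Capitals mark the codons of arginine-serine or serine-arginine pairs in the SR genes, and those of RGG triplets in the hnRNP genes.
SRSF2: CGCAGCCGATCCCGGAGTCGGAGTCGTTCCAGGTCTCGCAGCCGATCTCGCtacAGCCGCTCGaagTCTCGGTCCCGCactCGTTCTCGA
SRSF5: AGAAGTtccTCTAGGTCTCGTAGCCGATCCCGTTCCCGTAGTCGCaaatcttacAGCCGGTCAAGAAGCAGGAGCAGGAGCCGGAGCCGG
SRSF6: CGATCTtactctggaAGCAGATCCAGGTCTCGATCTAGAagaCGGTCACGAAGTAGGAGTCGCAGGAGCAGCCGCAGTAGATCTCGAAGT
SRSF7: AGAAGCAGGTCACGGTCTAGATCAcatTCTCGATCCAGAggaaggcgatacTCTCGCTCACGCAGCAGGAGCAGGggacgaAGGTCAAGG
SRSF4: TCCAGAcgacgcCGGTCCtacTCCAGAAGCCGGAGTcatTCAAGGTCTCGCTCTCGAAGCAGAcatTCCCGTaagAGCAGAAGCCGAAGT
SRSF1: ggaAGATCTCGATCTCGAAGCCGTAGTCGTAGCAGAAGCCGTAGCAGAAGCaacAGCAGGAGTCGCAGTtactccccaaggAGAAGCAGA
HNRNPA1: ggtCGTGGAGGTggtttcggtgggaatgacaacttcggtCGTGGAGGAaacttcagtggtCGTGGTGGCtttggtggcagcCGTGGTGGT
HNRNPA1P48: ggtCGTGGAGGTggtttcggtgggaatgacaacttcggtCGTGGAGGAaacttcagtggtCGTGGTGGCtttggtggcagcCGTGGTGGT
HNRNPU: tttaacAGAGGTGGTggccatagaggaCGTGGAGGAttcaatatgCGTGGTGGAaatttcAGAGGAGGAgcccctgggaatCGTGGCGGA
The SRSF2 stretch covers codons 127 to 156 in exon 2 (chr17:76736359-76736448, minus strand) and holds 23 overlapping pairs. That of SRSF5 covers codons 195 to 224 in exon 8 (chr14:69771225-69771314, plus strand), also with 23. The SRSF6 stretch runs over exons 4 and 5 (chr20:43460216-43460578, plus strand) with 21 pairs, and that of SRSF7 over exons 3 to 5 (chr2:38748151-38749536, minus strand) with 19. For SRSF4 it runs over exons 4 and 5 (chr1:29150147-29154739, minus strand) with 18 pairs, and for SRSF1 it lies in exon 4 (chr17:58005457-58005546, minus strand) with 21. The HNRNPA1 stretch spans exons 6 and 7 (chr12:54282602-54282825, plus strand) with 4 RGG triplets, and that of HNRNPU exons 11 and 12 (chr1:244855589-244855973, minus strand) with 5. HNRNPA1P48, which has a pseudogene-type name but a protein-coding biotype, carries its stretch in exon 2 (chr16:51646430-51646519, plus strand), and its 90 bases are the same as those printed for HNRNPA1.

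Over whole coding sequences, SR genes had a median of 47 arginine-serine codon pairs, from 9 in SRSF9 to 113 in SRSF4, and 11 of 12 had at least 20. No hnRNP gene past the expression filter reached 20 (median 4.5, highest 12), and 3.08% of 19497 coding genes did. At least 3 RGG triplets occurred in 11 of 22 hnRNP genes and in 1 SR gene, SRSF9, against 0.764% of coding genes. HNRNPA1 and HNRNPA1P48 were close copies, since 64.4% of the 50-base windows in the HNRNPA1P48 coding sequence occurred unchanged in that of HNRNPA1. For HNRNPA1L2, an intronless copy of HNRNPA1, this share was 38.7%. Reads from such windows cannot be assigned to 1 of these genes, and the counts of HNRNPA1P48 and HNRNPA1L2 are uncertain for this reason. Of the HNRNPA1 windows, 46.9% occurred in HNRNPA1P48 and 33.1% in HNRNPA1L2, so the HNRNPA1 level may be understated as well.

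The libraries held 17218884 (Control), 18337471 (DDX24-sh1) and 17847190 (DDX24-sh2) counts. In the order Control, DDX24-sh1, DDX24-sh2, which is kept for every set of 3 values below, DDX24 itself had 2010, 637 and 765 counts. The knockdown values are 29.6% and 36% of Control after scaling. The epithelial keratin genes KRT8 and KRT18 had 63926 to 69499 and 22548 to 24998 counts, EPCAM had 29 to 32, the leukocyte gene PTPRC had none, and CDKN2A, known to be deleted in A549, had none. Other epithelial markers were not stable, with 1001, 2251 and 2728 counts for KRT19 and 538, 358 and 261 for CDH1. The fibroblast gene COL1A1 had 139, 174 and 143 counts and COL3A1 had 2, 27 and 8, and the endothelial gene PECAM1 had 6, 12 and 7. Mitochondrial genes took 4.36%, 5.13% and 7.04% of counts in Control, DDX24-sh1 and DDX24-sh2, and their part in the results below was not tested. The labels of the shRNA libraries disagree between the deposited values. The FPKM labelled DDX24-sh1 matched the counts labelled DDX24-sh2 within 1% of a constant at 100% of genes with at least 50 counts, and the reverse also held, whereas as labelled 5.23% and 5.17% of genes matched. Names here follow the counts, and it cannot be told which of the labels is right, so each statement about a knockdown library holds for the library labelled so in the counts.

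Of the 39 members, 34 had a mean of at least 1 CPM over the libraries (CPM, counts scaled to library size), all 12 SR genes and 22 of 27 hnRNP genes, among 13984 genes that passed. The 5 others, HNRNPCL1, HNRNPCL2, HNRNPCL3, HNRNPCL4 (copies of HNRNPC) and the read-through gene HNRNPUL2-BSCL2, had 0 counts in every library. A count of 0 allows up to 3 counts, or 0.176, 0.164 and 0.166 CPM, for reads that could be assigned to the gene. All exons of HNRNPUL2-BSCL2 are shared with HNRNPUL2 or BSCL2 on the same strand. HNRNPCL3 and HNRNPCL4 have most of their 50-base coding windows in common, and all HNRNPCL genes share some with each other. The counter is not given, so reads from shared sequence may have been left out, and 0 counts do not bound expression there.

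To compare genes with each other, levels were expressed as CPM per kilobase of gene exons. On this scale the hnRNP genes were the more abundant group, with a summed level of 1034 in Control against 236 for the SR genes. HNRNPK, a poly-C binding protein with KH domains, stood highest in Control and DDX24-sh1, at 122, 112 and 115. HNRNPA1, a splicing repressor and shuttling protein, had 111, 103 and 122 and stood highest in DDX24-sh2, and HNRNPAB, an A/B-type hnRNP, came next at 99.1, 101 and 109. Among SR genes, SRSF3, which couples splicing to mRNA export, led in Control with 38.2, and stood at 31.4 and 38.1 in the knockdown libraries. SRSF6 had 32.3, 32.7 and 43.9. SRSF9, a close relative of SRSF1, had 28.9, 30.5 and 32.1, level with SRSF1 in Control (28.9). The lowest SR gene was SRSF12 at 0.52, 0.44 and 0.29, and the lowest hnRNP gene HNRNPA1L2. SRSF2 moved from rank 6 of the SR genes in Control to rank 2 in DDX24-sh1 and rank 1 in DDX24-sh2, and HNRNPH1 from rank 16 of the hnRNP genes to rank 10 in DDX24-sh2. Levels of genes with many annotated transcripts, such as HNRNPU, are understated on this scale because all annotated exons count as length.

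**Figure D1:**
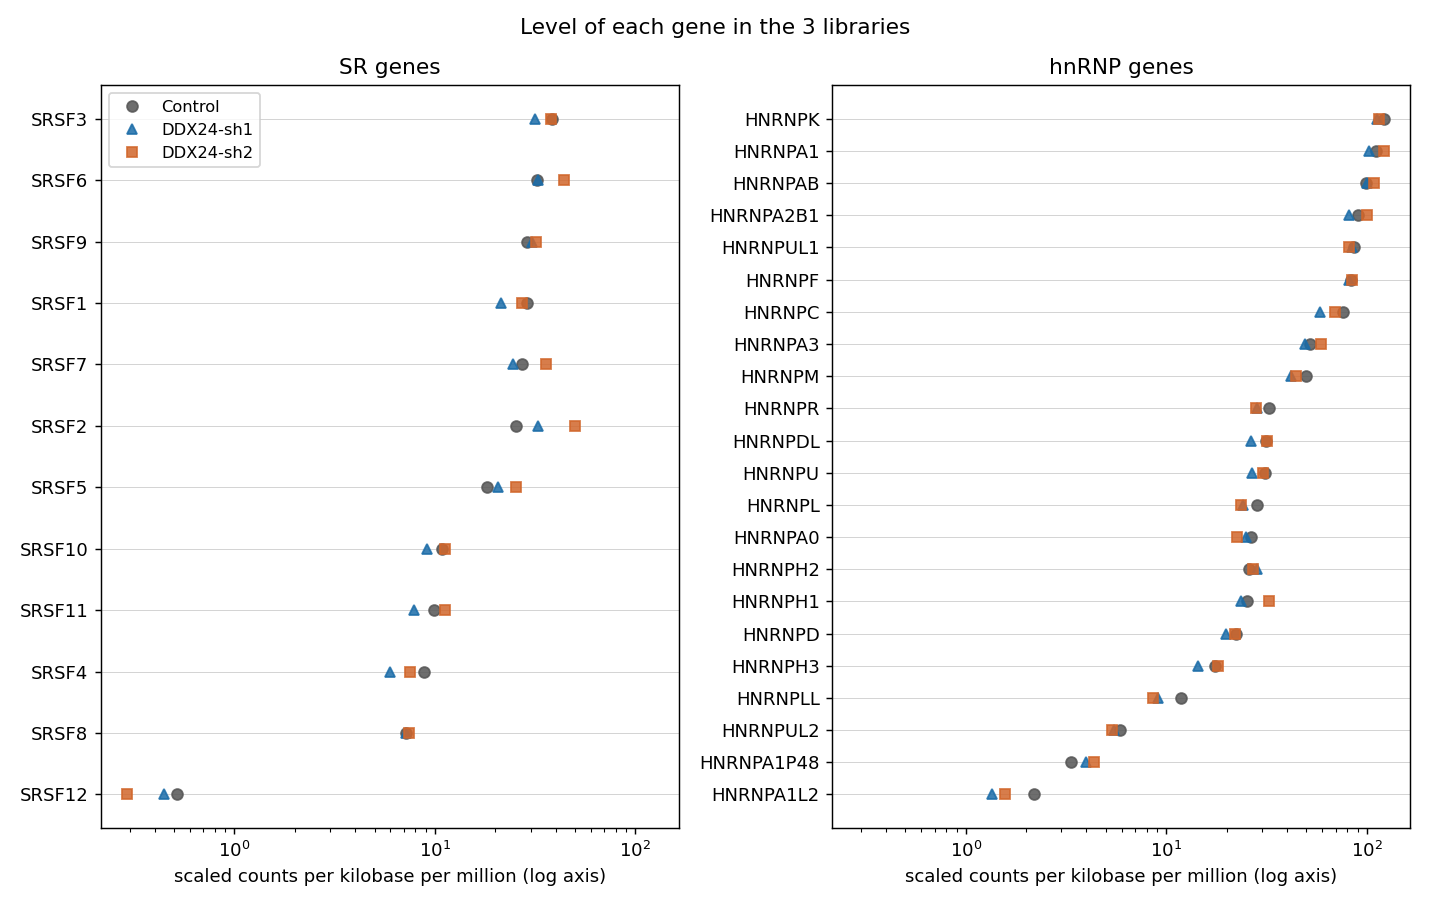
Level of each SR gene (left) and hnRNP gene (right) past the filter, as scaled CPM per kilobase on a log axis, with 1 point per library (circle Control, triangle DDX24-sh1, square DDX24-sh2). SRSF2 goes from rank 6 of the SR genes in Control to rank 1 in DDX24-sh2, while HNRNPK stayed between 112 and 122.

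SRSF2 was the only SR gene higher by at least 0.32 on the log2 scale in both knockdown libraries, the threshold used for a call throughout. SRSF2, an SR protein that stays in the nucleus and is recurrently mutated in myelodysplastic syndromes, had 1308, 1802 and 2724 counts. Its level was 129% of Control in DDX24-sh1 against 197% in DDX24-sh2, a log2 ratio of 0.36 (0.26 to 0.47) and 0.98 (0.88 to 1.07). DDX24-sh2 was also above DDX24-sh1, by 0.61 (0.53 to 0.70). The SRSF2 exons overlap those of MFSD11 on the opposite strand over 36.7% of their length, and strandedness of the counts is not given in the sources used here. MFSD11 had 325, 404 and 397 counts and a log2 ratio of 0.21 in each knockdown library. No SR gene passed the threshold downward in both.

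SRSF4, SRSF5 and SRSF6, close relatives with a pair of RNA-recognition motifs, differed from each other, and SRSF4 and SRSF5 were chosen after their values were seen. SRSF5, an insulin-responsive SR protein, had 1660, 2011 and 2440 counts, and its log2 ratio to Control was 0.18 (0.08 to 0.27) and 0.47 (0.38 to 0.57). SRSF6 had 2531, 2751 and 3639 counts and was level with Control in DDX24-sh1, at 0.02 (−0.06 to 0.10), and higher in DDX24-sh2, at 0.44 (0.37 to 0.52). SRSF4, the one with most arginine-serine pairs, was lower in both, at −0.57 (−0.69 to −0.45) and −0.24 (−0.36 to −0.13), on 1344, 969 and 1200 counts. Relative to SRSF6, SRSF4 was lower in both libraries, at 27.4%, 18.2% and 17% of the SRSF6 level.

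SRSF7 and SRSF11 were on opposite sides of Control in the knockdown libraries, with both intervals beyond 0. SRSF7, which works with SRSF3 in mRNA export, had 1880, 1822 and 2622 counts. Its log2 ratio was −0.14 (−0.24 to −0.05) under the first shRNA and 0.40 (0.31 to 0.49) under the second. SRSF11 had 1433, 1225 and 1716 counts, with log2 ratios of −0.33 (−0.44 to −0.22) and 0.18 (0.08 to 0.28). Opposite signs of this kind occurred in 2 of 12 SR genes and 4 of 22 hnRNP genes, against 2.6% of all genes and 3.55% of the 9661 better-covered genes (mean CPM of 10 or more), where intervals are narrower.

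Apart from SRSF12, the remaining SR genes were within 0.15 of Control in DDX24-sh2, and lower or level in DDX24-sh1. SRSF1, the founding SR protein and a proto-oncogene, had 1645, 1312 and 1643 counts, and its log2 ratio was −0.43 (−0.53 to −0.32) in DDX24-sh1 against −0.08 (−0.18 to 0.02) in DDX24-sh2. SRSF3 had 4644, 4092 and 4896 counts, with −0.28 (−0.34 to −0.22) in DDX24-sh1 against 0.00 in DDX24-sh2. SRSF9 had 1846, 2088 and 2166 counts, with 0.08 (−0.01 to 0.17) and 0.15 (0.06 to 0.24). SRSF8, SRSF10 and SRSF12 lay between −0.23 and 0.00 in DDX24-sh1 and between −0.77 and 0.06 in DDX24-sh2. The value of −0.77 belongs to SRSF12, which rests on 40, 37 and 24 counts and has an interval of −1.61 to −0.05.

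Among hnRNP genes, HNRNPLL and HNRNPA1L2 passed the threshold downward in both knockdown libraries and none did so upward. HNRNPLL, a CA-repeat binding relative of HNRNPL known for controlling PTPRC exons in lymphocytes, had 1202, 988 and 917 counts. Its log2 ratio was −0.38 (−0.51 to −0.26) in DDX24-sh1 against −0.47 (−0.60 to −0.35) in DDX24-sh2. HNRNPL did not reach the threshold, with 3288, 2998 and 2910 counts and ratios of −0.23 and −0.26, so the ratio of HNRNPL to HNRNPLL was higher than in Control by 0.15 (0.01 to 0.29) and 0.21 (0.07 to 0.36). HNRNPA1L2 had 51, 34 and 39 counts, with −0.65 (−1.36 to −0.03) and −0.45 (−1.11 to 0.16), and the second interval holds 0.

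The 4 hnRNP genes with opposite signs were members of the A/B family and HNRNPH1. HNRNPA1 had 9648, 9563 and 11220 counts and a log2 ratio of −0.11 (−0.15 to −0.07) and 0.14 (0.10 to 0.18). HNRNPA2B1, which also sorts RNAs for transport, had 14337, 13879 and 16712 counts, with −0.15 and 0.14. HNRNPA3 had 5383, 5400 and 6411 counts, with −0.10 and 0.17. These were small differences, with levels of 90.3% to 93.6% of Control in DDX24-sh1 and 110.0% to 113% in DDX24-sh2. HNRNPH1, which binds runs of G, had 4078, 4079 and 5545 counts, with −0.10 (−0.16 to −0.04) and 0.36 (0.30 to 0.42).

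HNRNPU, a nuclear matrix protein that the study's text lists among proteins bound by DDX24, had 11893, 10999 and 12316 counts and ratios (log2) of −0.21 (−0.25 to −0.18) and −0.03 (−0.07 to 0.01). HNRNPK had 10668, 10469 and 10639 counts, with −0.13 and −0.08, and HNRNPAB 3625, 3953 and 4199, with 0.03 and 0.13. The other 13 (HNRNPA0, HNRNPA1P48, HNRNPC, HNRNPD, HNRNPDL, HNRNPF, HNRNPH2, HNRNPH3, HNRNPL, HNRNPM, HNRNPR, HNRNPUL1 and HNRNPUL2) lay between −0.37 and 0.24 in DDX24-sh1 and between −0.26 and 0.38 in DDX24-sh2. The lowest in DDX24-sh1 was HNRNPC, a poly-U binding protein that keeps Alu exons out of mRNA, with 9463, 7858 and 9210 counts. The highest in both was HNRNPA1P48, which had 110, 140 and 152 counts.

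**Figure D2:**
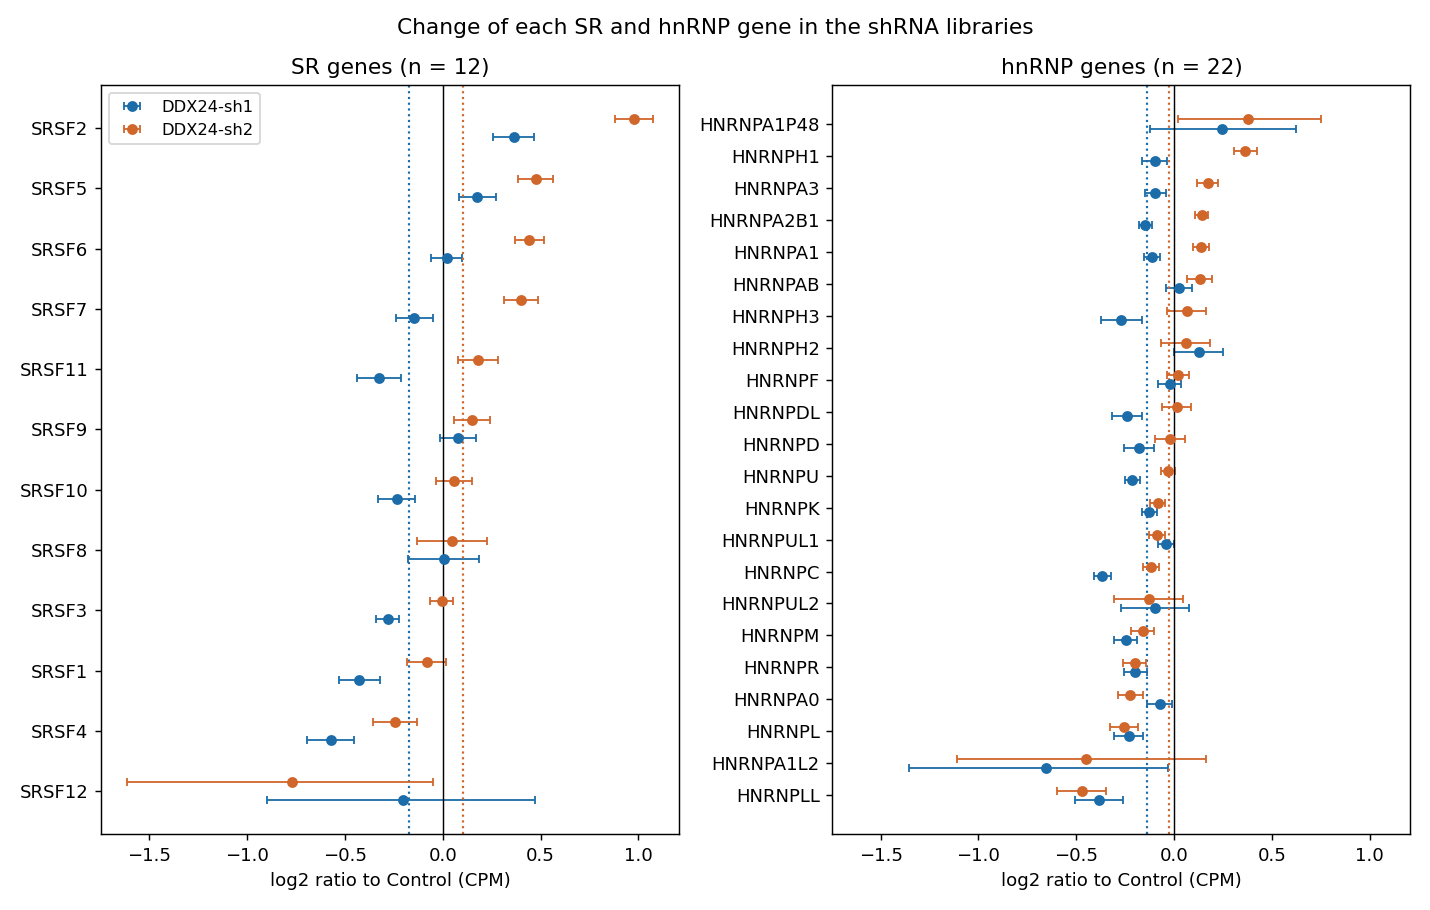
Log2 ratio to Control of each SR gene (left) and hnRNP gene (right) in DDX24-sh1 (blue) and DDX24-sh2 (orange), with bars for the 95% counting interval and dotted lines at the group medians. Most orange points lie right of the blue ones, SRSF2 is farthest right at 0.98 in DDX24-sh2, and HNRNPLL is left of 0 in both.

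The comparison of the groups asked whether SR and hnRNP genes moved alike. In DDX24-sh1 the median log2 ratio was −0.17 over the 12 SR genes and −0.14 over the 22 hnRNP genes, a difference of −0.04, beside −0.02 for all genes tested. In DDX24-sh2 it was 0.10 and −0.03, a difference of 0.13, beside −0.03 for all genes. The SR genes ranged from −0.57 to 0.36 and the hnRNP genes from −0.65 to 0.24 in DDX24-sh1. In DDX24-sh2 the ranges were −0.77 to 0.98 and −0.47 to 0.38. Past the threshold in both libraries, 1 of 12 SR genes was higher (8.33%), where 10.2% of all genes were, and 2 of 22 hnRNP genes were lower (9.09%), where 12.4% of all genes were. Both shares are near the background, and no member was past 1.5-fold in both, where 4.23% of all genes were higher and 4.72% lower. Both ratios share the Control library, which can place a gene on the same side in each.

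Within DDX24-sh1, 17 of 22 hnRNP genes and 6 of 12 SR genes had an interval below 0, against 29.5% of all genes, and 35.7% of the 9661 better-covered ones. An interval above 0 was found for 1 hnRNP gene and 2 SR genes, against 23.6% of all genes and 26.4% of the better-covered ones. The differences were small, since 3 hnRNP genes and 3 SR genes passed the threshold downward there, where 20.4% of all genes did, and 1 SR gene and 0 hnRNP genes upward, where 17.2% did. In DDX24-sh2, 6 SR genes had an interval above 0 and 2 below, and the hnRNP genes had 6 above and 8 below, against 23.6% and 30.8% of all genes and 25% and 37.2% of the better-covered ones. Past the threshold upward in DDX24-sh2 were 4 SR genes (SRSF2, SRSF5, SRSF6 and SRSF7) and 2 hnRNP genes (HNRNPH1 and HNRNPA1P48), where 17.7% of all genes were, and downward 1 SR gene (SRSF12) and 2 hnRNP genes (HNRNPLL and HNRNPA1L2), where 21.3% were.

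A direct comparison of the knockdown libraries does not use Control. DDX24-sh2 was above DDX24-sh1 in 11 of 12 SR genes, 9 with an interval above 0 and none below, and the median difference was 0.31. The exception was SRSF12. Of the hnRNP genes, 15 of 22 were higher in DDX24-sh2, 12 with an interval above 0 and 2 below, and the median difference was 0.12. All genes had a median of −0.01, with 21.0% of intervals above 0 and 23.8% below, and 23.5% and 28.5% among the better-covered ones. Past the threshold, 6 SR genes and 2 hnRNP genes were higher in DDX24-sh2, where 13.8% of all genes were, and 1 SR gene and 0 hnRNP genes were lower, where 14.5% were. With 1 culture each, a difference between shRNAs and a difference between cultures cannot be told apart, and in RNA from a whole culture fewer expressing cells and less RNA per cell cannot be told apart either.

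**Figure D3:**
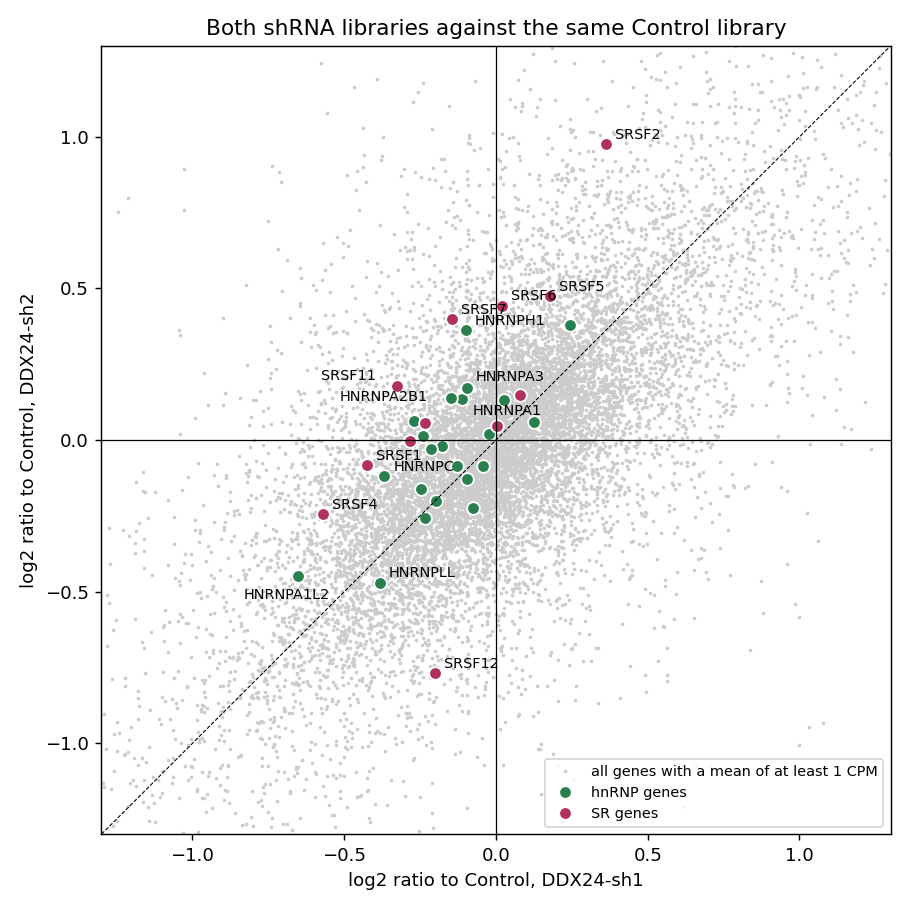
Log2 ratio to Control in DDX24-sh1 (horizontal) and DDX24-sh2 (vertical) for the SR genes (red), the hnRNP genes (green) and other genes past the filter (grey), with a dashed line of equal ratios. The 533 genes beyond 1.3 on either axis are not drawn, both axes share the Control library, and 11 of the 12 SR genes lie above the dashed line.

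Sums over the genes weight each member by its expression. The SR genes took 0.120%, 0.111% and 0.144% of counts, and the hnRNP genes 0.640%, 0.580% and 0.653%. On the scaled sums the SR genes were at −0.12 (−0.15 to −0.10) in DDX24-sh1 against 0.23 (0.20 to 0.26) in DDX24-sh2. The hnRNP genes were at −0.15 (−0.16 to −0.14) and 0.00 (−0.01 to 0.01). Per kilobase, the summed SR level was 22.9%, 23.7% and 27.9% of the summed hnRNP level, a log2 change of 0.05 and 0.29. Without SRSF2 the changes were −0.01 and 0.18.

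Of 8 pairs of related or opposing genes, SRSF1 and HNRNPA1 are the textbook antagonists in splice-site choice. The SRSF1 level was 26.0%, 20.9% and 22.3% of that of HNRNPA1, and either level may be understated because of sequence shared with other genes. The log2 change of their ratio was −0.31 (−0.43 to −0.20) and −0.22 (−0.33 to −0.11), opposite in sign to the summed SR to hnRNP ratio. SRSF3 to SRSF7 was lower in both libraries, by −0.14 (−0.25 to −0.03) and −0.40 (−0.51 to −0.30), and SRSF4 to SRSF6 by −0.59 (−0.74 to −0.45) and −0.69 (−0.82 to −0.55). HNRNPH1 to HNRNPF was −0.08 (−0.16 to 0.01) in DDX24-sh1 against 0.34 (0.26 to 0.43) in DDX24-sh2. HNRNPU to HNRNPUL1 was −0.17 (−0.23 to −0.12) and 0.06 (0.00 to 0.11). The ratios of HNRNPA1 to HNRNPA2B1 and of HNRNPD to HNRNPDL were within counting error of Control in both, with all intervals between −0.14 and 0.17.

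Genes that act with these proteins were read from 3 lists. The first list held kinases and a phosphatase of SR proteins and the nuclear importins TNPO1, TNPO2 and TNPO3, which are not all specific to SR proteins. Over its 11 genes past the filter, the medians were −0.07 in DDX24-sh1 against −0.14 in DDX24-sh2. CLK2, a nuclear SR kinase, was the one past the threshold in both, with 206, 291 and 380 counts and ratios (log2) of 0.40 (0.14 to 0.66) and 0.80 (0.55 to 1.05). That is 1 of 11 past the threshold upward in both, where 10.2% of all genes were. Downward past it in both were 0 of 11, where 12.4% of all genes were. SRPK3 was under the filter.

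The 20 SR-like and SR-related genes had medians of −0.19 and 0.08, below 0 and then above, as the SR medians were. In DDX24-sh1, 14 of them had an interval below 0 and 2 above, and in DDX24-sh2 3 were below and 7 above. Of all genes, 29.5% were below and 23.6% above in the first library and 30.8% and 23.6% in the second, so the 7 are not far from that share. ZRANB2, a zinc-finger splicing protein with an RS domain, was past the threshold upward in both, with 466, 646 and 861 counts. Its ratios (log2) were 0.37 (0.20 to 0.55) and 0.80 (0.64 to 0.97). None passed the threshold downward in both, and smaller decreases were not counted. The shares of all genes past it in both were 10.2% upward and 12.4% downward.

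The 25 genes past the filter among hnRNP proteins with other symbols and other exon regulators had medians of −0.18 and −0.10, with 15 intervals below 0 in each library, 3 above in DDX24-sh1 and 6 above in DDX24-sh2, beside the same shares of all genes (29.5% and 30.8% below, 23.6% above in each). The 6 are at that share. RBM5, a tumour-suppressor splicing factor, was higher in both, with 351, 493 and 617 counts and ratios (log2) of 0.39 and 0.73. MBNL2, a muscleblind protein, was lower in both, with 1798, 1537 and 1248 counts and ratios (log2) of −0.33 and −0.61, so 1 of 25 was called each way, under the shares of all genes (10.2% and 12.4%). ESRP1 and ESRP2, epithelial splicing regulators, were under the filter. The symbol MATR3 belongs to 2 gene identifiers, and the one with more counts held 17, 19 and 38, so its value says little.

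**Figure D4:**
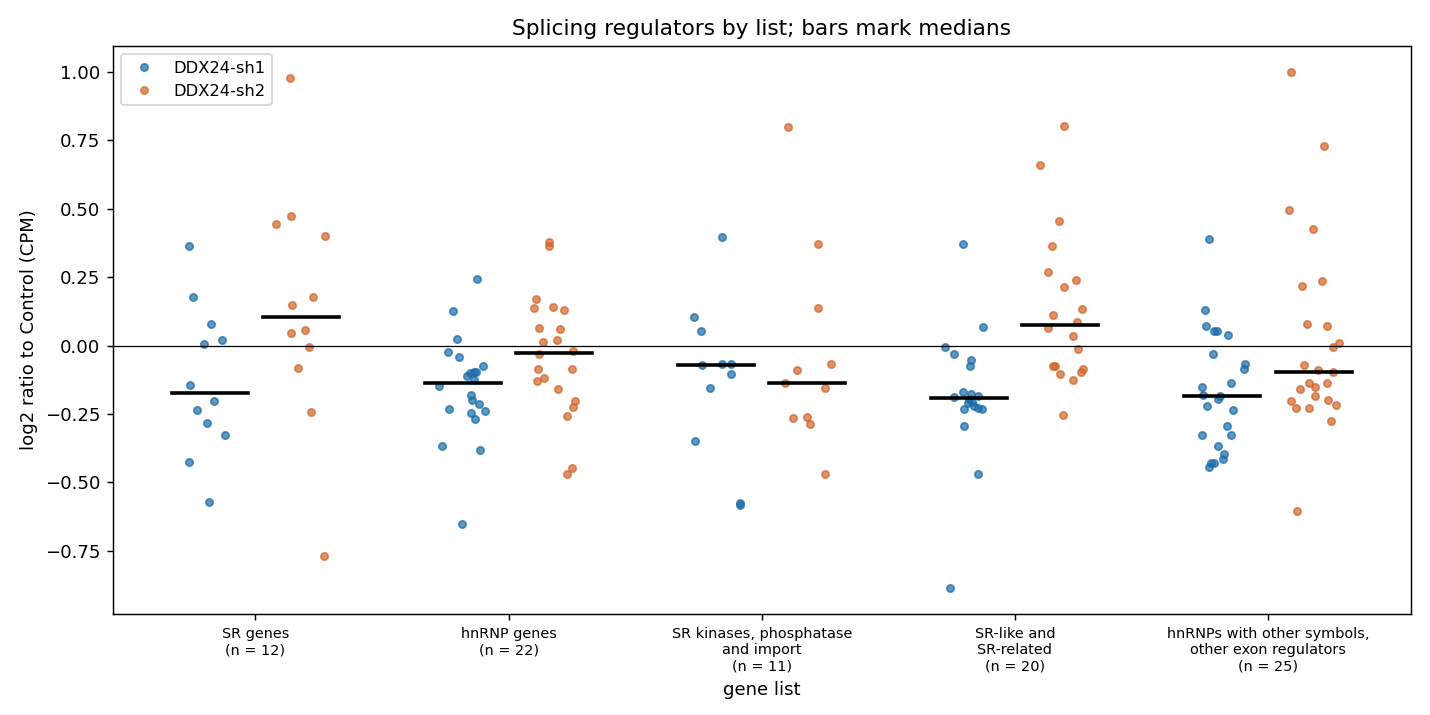
Log2 ratio to Control of each gene in DDX24-sh1 (blue) and DDX24-sh2 (orange) for the SR genes, the hnRNP genes and 3 lists of genes that act with them, with black bars at the medians. The SR and the SR-like and SR-related genes have medians below 0 in DDX24-sh1 (−0.17 and −0.19) and above 0 in DDX24-sh2 (0.10 and 0.08).

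The annotated transcripts of the groups differ in NMD forms more than in retained introns. All 12 SR genes have at least 1 annotated NMD transcript, against 13 of 22 hnRNP genes and 42.9% of 12407 protein-coding genes past the filter. A retained-intron transcript is annotated for 9 SR genes, 14 hnRNP genes and 57.8% of protein-coding genes. The median share of annotated transcripts that are NMD or retained-intron forms is 52.3% in SR genes, 22.0% in hnRNP genes and 22.2% in protein-coding genes. The groups overlap, with a share of 12.5% in SRSF11 and 61.3% in HNRNPU. Counts per gene cannot show which of these transcripts the reads came from.

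Other genes share exons with a few members. SRSF1 shares 56.6% of its exon length with AC015813.2 on the same strand, which had 0 counts in every library, and SRSF9 shares 46.2% with GATC on the opposite strand. HNRNPUL2 shares 44.1% with the read-through gene at 0 counts. The counter is not given, so it cannot be told whether reads from exons shared on the same strand were counted. The levels of SRSF1 and HNRNPUL2 may be understated for this reason. HNRNPA1 has 74 pseudogenes by name, whose counts summed to 95, 98 and 151 against 9648, 9563 and 11220 for the gene, and HNRNPC has 9, with 160, 161 and 155.

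Promoters from RefSeq (GRCh38.p14), 250 bases before to 50 after each start, were found for 31 of the 34 members past the filter. The part upstream of the start, 120 bases, is shown for SRSF5 and SRSF6, which were higher in DDX24-sh2. It is also shown for SRSF4 and HNRNPLL, which were lower in both libraries, although SRSF4 did not reach the threshold in DDX24-sh2. Capitals mark matches, on either strand, to the GC box GGGCGG and the ETS core CCGGAAG.
SRSF5: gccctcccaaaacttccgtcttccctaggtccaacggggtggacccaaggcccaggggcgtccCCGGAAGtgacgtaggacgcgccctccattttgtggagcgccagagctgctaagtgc
SRSF6: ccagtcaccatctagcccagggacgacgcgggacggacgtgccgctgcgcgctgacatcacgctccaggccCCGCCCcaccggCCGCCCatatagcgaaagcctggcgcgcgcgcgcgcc
SRSF4: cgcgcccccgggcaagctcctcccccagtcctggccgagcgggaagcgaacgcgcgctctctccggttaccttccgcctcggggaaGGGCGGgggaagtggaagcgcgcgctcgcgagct
HNRNPLL: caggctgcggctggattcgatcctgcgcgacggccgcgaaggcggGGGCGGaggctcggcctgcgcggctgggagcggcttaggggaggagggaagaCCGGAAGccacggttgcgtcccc
These lie at chr14:69767022-69767141 (plus), chr20:43457776-43457895 (plus), chr1:29181901-29182020 (minus) and chr2:38602929-38603048 (minus).
Several further motifs were searched on both strands over the full windows, some genes having more than 1 start. CCAAT occurred in 3 of 14 SR promoters and 19 of 31 hnRNP promoters, against 34.6% of 35116 promoters. Starts of the same gene were counted separately, so SRSF8, whose windows overlap and share the site, and HNRNPF and HNRNPL each count more than once. GGGCGG occurred in 6 of 14 and 22 of 31, against 45.0%. In these counts SRSF7, HNRNPDL, HNRNPF, HNRNPH3, HNRNPL and HNRNPUL1 each count more than once. The E box CACGTG occurred in none of 14 and 8 of 31, against 7.26%, with HNRNPDL counted more than once. TATAAA occurred in 3 of 14 and 3 of 31, against 11.5%. CCGGAAG occurred in 2 of 14 and 3 of 31, against 10.3%. Neither TGACGTCA nor the NRF1 site occurred in a promoter of either group, against 1.85% and 1.24% of all.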

How the data were processed

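RNA from 3 A549 cultures (Control, DDX24-sh1 and DDX24-sh2, grouped by the sample titles, 4 μg of total RNA each) was sequenced, 1 library each. The authors deposited raw counts per gene, whole numbers without normalization, and FPKM values per gene, which divide counts by gene length and library size. The submitters' processing notes name Bowtie2 2.0.6, TopHat2 2.0.9, Cufflinks 2.1.1 and Cuffdiff 2.1.1; the counter and the strandedness are not given in the sources used here. The start and end of all 58735 genes match GENCODE 29.

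Counts were scaled by TMM (edgeR 4.0.16, R 4.3.3) and converted to log2 CPM with a prior count of 2. Totals were 17218884 to 18337471 counts. Intervals are exact 95% conditional binomial (Clopper-Pearson) intervals; those of pairs are exact intervals of conditional odds ratios, and those of summed counts treat the sum as 1 count. They cover counting error only, and without molecular identifiers the reads may repeat molecules. No p-value was computed, because each group has 1 library. Genes averaging 1 CPM or more were compared, and a log2 ratio of 0.32 in size, with the same sign in both knockdown libraries, was the threshold. Levels between genes are per kilobase of the merged annotated exons.

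Values were printed for members past the threshold in both libraries and for those with opposite signs beyond counting error. They were also printed for the 3 most abundant of each group, and for SRSF1, HNRNPA1 and HNRNPU. The others were summarised, apart from genes named as chosen later and HNRNPL, shown beside HNRNPLL. HNRNPC, HNRNPA1P48 and SRSF12 were named as extremes of the observed ranges. The members, lists, pairs and tests were chosen with earlier results of these data known. Steps were tested on simulated data. Alternatives were DESeq2 1.42.0 size factors, total counts, log2(FPKM + 0.1) with labels as given and exchanged, a prior of 0.5, no filter or 10 CPM, 1.5-fold and 2-fold thresholds, counts with pseudogenes added, and no read-through genes. Leaving out SRSF2 was added after seeing the data. Calculations used Python 3.11.15, scipy 1.17.1 and matplotlib 3.10.9.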

Additional observations from a re-analysis of the deposited data

Results flagged for a closer look

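Each of 6 members lay on opposite sides of Control in the knockdown libraries, with both counting intervals beyond 0. The difference between the libraries was not tested, since each is 1 culture and both ratios use the same Control. The log2 ratio in DDX24-sh1 and in DDX24-sh2 was −0.33 and 0.18 for SRSF11, −0.14 and 0.40 for SRSF7, and −0.10 and 0.36 for HNRNPH1. For the A/B-type hnRNP genes it was −0.11 and 0.14 for HNRNPA1, −0.15 and 0.14 for HNRNPA2B1, and −0.10 and 0.17 for HNRNPA3. Such opposite signs were found in 2.6% of all genes and in 3.55% of the better-covered ones, whose intervals are narrower. HNRNPH1, HNRNPA3, HNRNPA1 and HNRNPA2B1 had a mean CPM from 256 to 842, so small differences passed their intervals. No share was computed for other genes at that depth, so whether these members exceed it was not tested.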

How the results depend on the processing

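No paired analysis was possible because each condition has 1 library, and for the same reason no library could be left out. The group medians, their difference and the summed ratio have no counting interval of their own. They moved by less than a single member's interval typically reaches to either side (medians of 0.06 to 0.10). This held with DESeq2 size factors, total counts, a prior of 0.5, no filter and a mean of at least 10 CPM. It also held with pseudogenes added, read-through genes left out, and FPKM with the shRNA labels exchanged. The same summaries kept their direction, except the hnRNP median in DDX24-sh2, which lay near 0 and was 0.0034 with total counts and 0 with no filter. The SRSF1 to HNRNPA1 ratio, recomputed with pseudogenes added and with the FPKM under either labelling, stayed lower in both knockdown libraries. With the FPKM labels as given, the SR median became 0.112 for DDX24-sh1 against −0.148 for DDX24-sh2, the hnRNP median −0.0164 and −0.124, their difference 0.129 and −0.0245, and the log2 change of the summed ratio 0.287 and 0.0501. Of 68 member values, 44 then lay outside their interval and 21 changed sign, among them 3 that had been past the threshold in that library, SRSF11 to 0.19 in DDX24-sh1, SRSF7 to −0.13 in DDX24-sh2 and HNRNPH1 to −0.086 in DDX24-sh2, whereas with exchanged labels all 68 stayed within it. With a mean of at least 10 CPM, 1 hnRNP gene was lower in both libraries, and at 1.5-fold and 2-fold 0 SR genes were higher and 0 hnRNP genes lower. Without SRSF2, an alternative added after seeing the data, the log2 change of the summed ratio was −0.0124 for DDX24-sh1 against 0.178 for DDX24-sh2. Depth limits SRSF12, HNRNPA1L2 and HNRNPA1P48, whose counts were 24 to 152.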
